A study of Homo sapiens with 8 samples.

Results

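The MYC locus was described here by every listed ATAC-seq peak from 500 kb before the MYC gene to 2 Mb after it, a stretch of 2.51 Mb on chromosome 8 from 127235434 to 129742951 (GRCh38). The window follows from the positions of the genes and not from any measured value. Merging the peaks that overlapped between the 8 samples gave 155 regions in the window out of 69131 in the whole series. Of the 155, 43 overlapped PVT1, 2 lay at a boundary of a protein-coding gene (within 1 kb of either end), both at MYC, and 32 were held by 1 list alone. ATAC-seq marks open chromatin by the insertion of adapters by a transposase. It was carried out in H1975 and HCC44, 2 cell lines from human lung cancers, both labelled with the genotype WT, after 96 h in ACBI1 at a labelled 1 mM or in its solvent DMSO. ACBI1 sends both ATPases of SWI/SNF chromatin remodellers, SMARCA2 and SMARCA4, to the proteasome together with the subunit PBRM1. Each of the 4 groups (H1975 DMSO, H1975 ACBI1, HCC44 DMSO and HCC44 ACBI1) had 2 replicates. The labels do not say whether these came from separate cultures, so the spread between them may be technical.

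MYC encodes a basic helix-loop-helix transcription factor that pairs with MAX and drives growth and proliferation genes. It stands almost alone among protein-coding genes in a wide stretch of non-coding sequence, and enhancers of different tissues lie far to either side of it. PVT1, the long non-coding RNA gene that follows MYC, holds several enhancers in its body, and its promoter can compete with that of MYC for them. A super-enhancer that is amplified in some lung adenocarcinomas lies beyond PVT1, and a distant cluster of enhancers that depends on SMARCA4 has been described in leukaemia cells still farther away. MYC itself runs from 127735434 to 127742951 and PVT1 from 127794524 to 128101256 on the same chromosome.

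The lists held between 22133 and 50347 peaks, and depth in reads is unknown. The lowest −log10 q, the significance of a peak after correction, was between 10.0 and 10.2 in every list. All 5 epithelial marker genes (EPCAM, CDH1, KRT8, KRT18 and KRT19) had a boundary peak in 7 lists and 4 of them in HCC44 ACBI1 replicate 1. The lung lineage markers (NKX2-1, SFTPB, SFTPC and SFTPA1) had 1 to 3 of 4, endothelial markers 0 of 2 and fibroblast markers 1 to 3 of 3. Of the leukocyte markers PTPRC, CD3E and CD14, 1 to 2 of 3 had a boundary peak in each list, with PTPRC in 0 lists. A missing peak is not a measurement of closed chromatin, since listing depends on depth and background.

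In each of the 8 lists the peak with the highest −log10 q of the whole genome lay in this window. It was in PVT1, 108 kb after MYC, in H1975 DMSO replicate 1, and in PVT1 at 333 kb in H1975 DMSO replicate 2. It lay 384 kb after MYC, past PVT1, in both HCC44 DMSO lists, and 432 kb after MYC in all 4 ACBI1 lists. Of the 10 peaks with the highest −log10 q in a list, 10 and 10 were in the window in the H1975 DMSO lists and 10 and 9 in the HCC44 DMSO lists. In the ACBI1 lists, 4 and 2 of the top 10 were in the window in H1975, and 4 and 5 in HCC44. Among the top 100, the window held 16 and 14 peaks in the DMSO lists of H1975 against 6 and 6 in its ACBI1 lists. In HCC44 it held 24 and 24 against 7 and 7. In both lines, both ACBI1 lists thus held fewer of these peaks than both DMSO lists. How other stretches of the genome compared in this count was not computed.

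The authors' fold enrichment, the ratio of a peak's signal to the caller's background, ordered the same peaks differently. By fold enrichment 0 window peaks were among the top 100 in 6 lists, and 1 was in each HCC44 ACBI1 list. That 1 lay 423 kb before MYC, in the non-coding genes CASC21 and CASC8 (127311166 to 127312101). It had a peak in the 4 HCC44 lists and in 0 of the H1975 lists. Its fold enrichments were 6.10 and 4.88 in the DMSO lists and 12.1 and 9.41 in the ACBI1 lists. Its places by −log10 q were 186 and 872 with DMSO and 3 and 7 with ACBI1, where place 1 is the highest. Places in lists of unequal length do not measure a change.

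**Figure D1:**
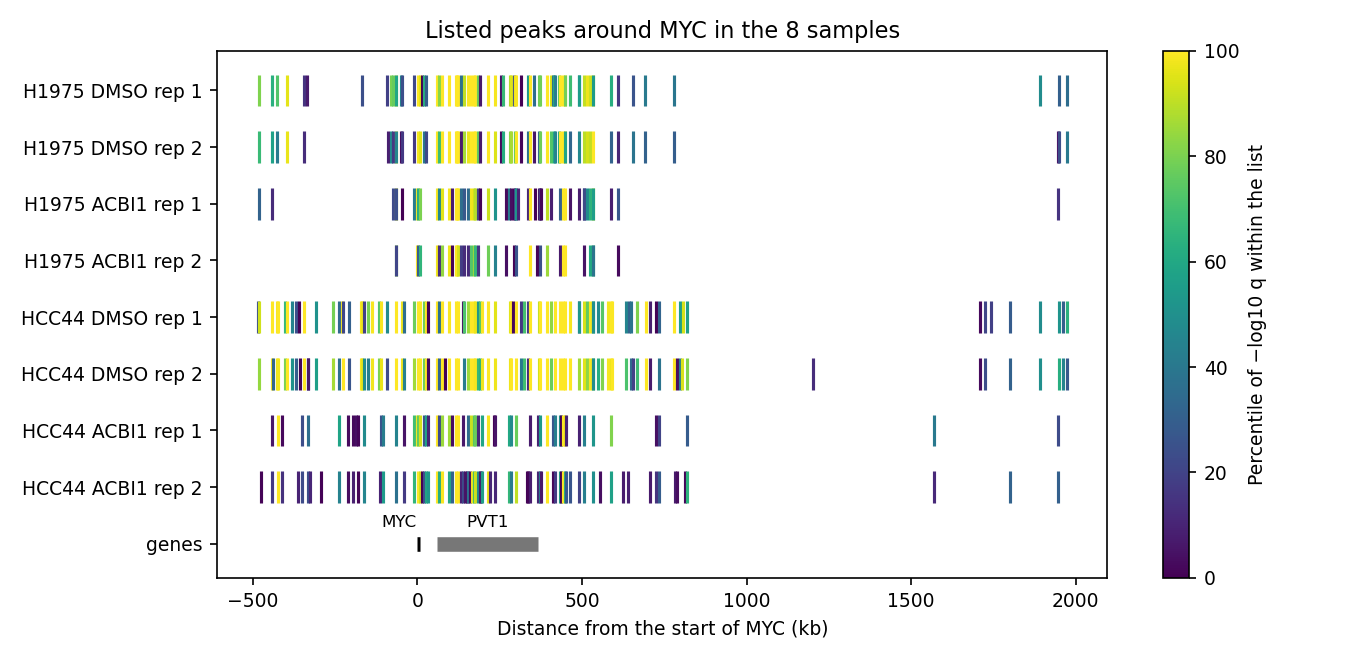
Each tick is a listed peak, placed by its midpoint's distance from the start of MYC in kb and coloured by the percentile of its −log10 q within its own list, for the 8 samples (rows), with MYC and PVT1 drawn below. Peaks of high percentile crowd over and just past PVT1, and no list holds a peak between 810 and 1193 kb after MYC.

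The number of listed peaks in the window was lower with ACBI1 in both lines. The DMSO lists of H1975 held 76 and 69 peaks there and its ACBI1 lists 57 and 37. The DMSO lists of HCC44 held 100 and 99, and its ACBI1 lists 62 and 83. The groups did not overlap in either line. Whole lists were shorter with ACBI1 too, and the share of equally long stretches of the genome without overlap was not computed. In H1975 the mean under DMSO was 72.5 ± 4.95 and that under ACBI1 47 ± 14.1 (SD, n = 2 each). This is −0.66 on the log2 scale, where replicates had a pooled SD of 0.32. In HCC44 the means were 99.5 ± 0.707 and 72.5 ± 14.8 (SD, n = 2 each), or −0.47 on the log2 scale with a pooled SD of 0.21. Averaged over the lines this was −0.56 (exact permutation test within lines, two-sided, p = 0.0556, the smallest p of 36 arrangements). Within 1 line the smallest p is 0.333, which both lines gave. HCC44 differed from H1975 in this change by 0.19, with a pooled SD of 0.27 (exact permutation test, two-sided, p = 0.722). That difference was −0.13 without H1975 ACBI1 replicate 2 and −0.025 without HCC44 ACBI1 replicate 2.

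The covered length followed the number. It was 68.5 and 58.6 kb with DMSO and 52.9 and 30.3 kb with ACBI1 in H1975, and 98.0 and 104.9 kb against 56.9 and 87.7 kb in HCC44. No ACBI1 sample reached a DMSO sample of its line, and how often this holds over the genome was not computed either. On the log2 scale the change in covered length was −0.66 in H1975 (pooled SD 0.42) and −0.52 in HCC44 (pooled SD 0.32). The average of −0.59 gave p = 0.0556, again the lowest p that a two-sided exact permutation test allows here. The H1975 change was −1.06 without ACBI1 replicate 1 and −0.26 without ACBI1 replicate 2. The HCC44 change was −0.83 without ACBI1 replicate 2 and −0.21 without ACBI1 replicate 1.

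Whole lists were also shorter with ACBI1, with log2 changes in length of −0.77 in H1975 and −0.97 in HCC44. The window held 1.75 and 1.68 of every 1000 listed peaks in the DMSO lists of H1975, against 2.06 and 1.67 in its ACBI1 lists. It held 1.99 and 1.98 with DMSO and 2.36 and 3.34 with ACBI1 in HCC44. The share in H1975 overlapped between treatments, and differed by 0.11 on the log2 scale with a pooled SD of 0.15. In HCC44 both ACBI1 samples were above both DMSO samples, by 0.50 on the log2 scale with a pooled SD of 0.25. The average change in share was 0.31 (exact permutation test, two-sided, p = 0.167). Its sign depended on the weakest peaks. With a minimum −log10 q of 20 it was −0.22 in H1975, −0.12 in HCC44 and −0.17 over both lines. When all lists were cut to the same length by −log10 q, number and share changed alike. That change was −0.36 in H1975, −0.47 in HCC44 and −0.41 over both lines. Stretches of the genome as long as the window, with at least 10 peaks in both DMSO samples, had a median log2 change in peak number of −0.85 (quartiles −1.10 and −0.63) in H1975. In HCC44 the median was −1.06 (quartiles −1.34 and −0.78). On the same scale, log2(count + 1), the window had −0.65 and −0.47.

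Among untreated lines, HCC44 held more peaks in the window than H1975, by 0.46 on the log2 scale against an SD of 0.070 (p = 0.333 in a two-sided exact permutation test, which can go no lower). This order was not found in every part of the window. From 50 kb before MYC to 50 kb after PVT1 the difference was −0.11, and with a minimum fold enrichment of 5 it was −0.43.

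Peaks were counted by the zone of their midpoint, which placed peaks at MYC differently between lists. The region at the start of MYC held 2 peaks in both H1975 ACBI1 lists and HCC44 ACBI1 replicate 1. In these lists 1 of the 2 was counted before MYC. With DMSO its single peak was counted over the MYC gene. The peak at the end of MYC was counted after MYC in both H1975 DMSO lists and over the gene in the other lists. Counts in zones that touch MYC are therefore not fully alike between treatments. In the 500 kb before MYC, the H1975 lists held 15 and 13 peaks under DMSO against 8 and 3 under ACBI1. The HCC44 lists held 29 and 30 against 17 and 19. In the first 500 kb after MYC, which hold PVT1, H1975 had 48 and 44 under DMSO against 40 and 28 under ACBI1. The HCC44 values there were 40 and 38 against 36 and 47, so its groups overlapped. From 500 to 1000 kb after MYC, H1975 had 9 and 8 against 6 and 4, and HCC44 had 21 and 21 against 5 and 12. The stretch from 1000 to 1500 kb held 1 peak in 1 list, HCC44 DMSO replicate 2. From 1500 to 2000 kb, H1975 had 3 and 3 against 1 and 0, and HCC44 had 8 and 7 against 2 and 3. Outside the first 500 kb and the MYC gene, each HCC44 zone with peaks in both DMSO lists had fewer peaks in both ACBI1 lists. Whole HCC44 lists were shorter with ACBI1 too, and the share of like stretches of the genome was not computed. Narrowed to the stretch from 50 kb before MYC to 50 kb after PVT1, the log2 change in peak number in HCC44 was 0.029.

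**Figure D2:**
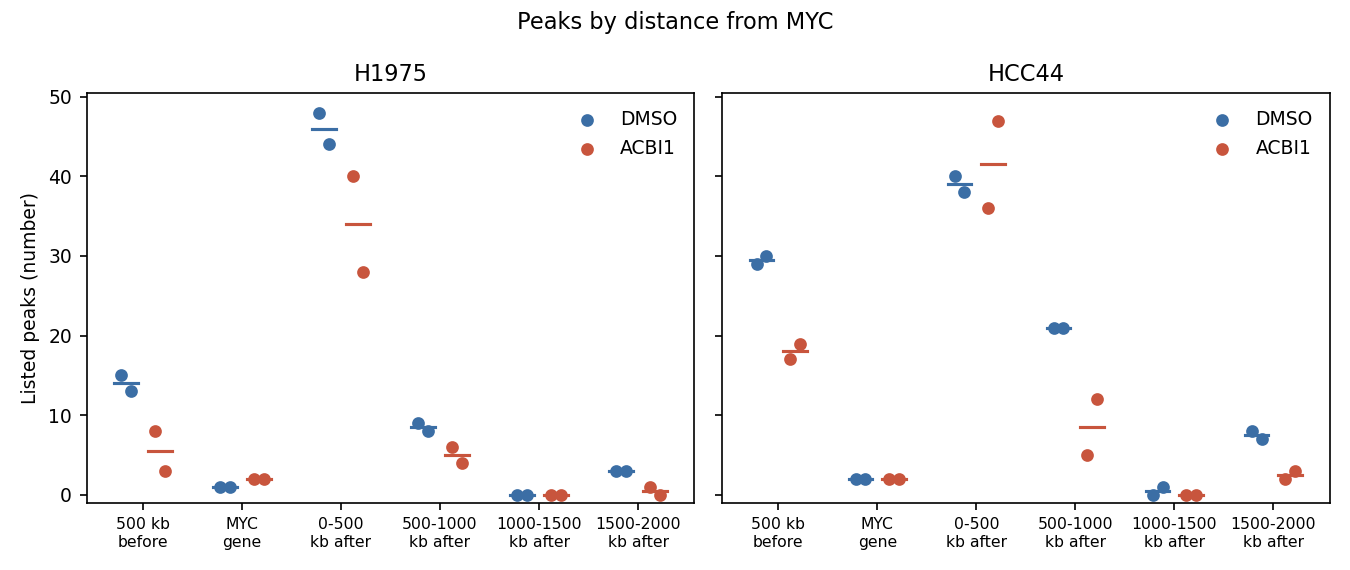
Points give the number of listed peaks per sample (y axis) in 6 zones by distance from MYC (x axis), for H1975 (left) and HCC44 (right), with DMSO in blue, ACBI1 in red and short lines at the mean of the 2 replicates. The zone of the first 500 kb after MYC holds 28 to 48 peaks in every sample, and only there and over the MYC gene do the HCC44 ACBI1 samples fail to lie below both DMSO samples among zones with peaks in both DMSO lists. Zones are by peak midpoint, so peaks at the ends of MYC fall in different zones in different lists.

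A region was called lost in a line when both DMSO samples and neither ACBI1 sample held a peak, retained when all 4 did, and gained when both ACBI1 samples and neither DMSO sample did. Of 65 window regions with a peak in both H1975 DMSO samples, 21 (32.3%) were lost and 28 (43.1%) retained, with the rest in 1 ACBI1 sample. Over the whole genome 36.8% were lost and 52.3% retained, and away from gene boundaries, where nearly all window regions lie, 50% and 35.9%. Of 92 such HCC44 regions, 43 (46.7%) were lost and 43 (46.7%) retained, against 49.2% and 44.6% over the genome and 63.0% and 29.8% away from boundaries. Window regions were thus lost less often and retained more often than the regions away from boundaries, in counts that carry no test. Without H1975 ACBI1 replicate 1 the H1975 loss was 37 regions, and without replicate 2 the retained regions numbered 44.

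Strength in DMSO goes with these shares. Retained window regions had a median DMSO percentile of −log10 q of 99.7 in H1975 and 99.2 in HCC44, and lost ones 36 and 76.9. Over the genome the medians were 73.7 and 70.1 for retained and 35.4 and 43.0 for lost regions. Restricted to regions with a mean DMSO percentile over 80, 2 of 30 window regions were lost and 23 retained in H1975. Of such regions, 2.18% were lost over the genome and 5.74% away from boundaries, where 85.0% were retained. In HCC44, 19 of 51 were lost and 30 retained. There 20.1% were lost over the genome and 38.8% away from boundaries, where 53.1% were retained. Among these strong regions the lost shares in the window, 6.67% and 37.3%, therefore lay near those away from boundaries. The retained share in the window was 76.7% in H1975, below the 85.0% away from boundaries. In HCC44 it was 58.8%, above the 53.1%. Over the genome 94.3% of such regions were retained in H1975 and 75.6% in HCC44.

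Within the window, loss in HCC44 was uneven. Of the regions with a mean DMSO percentile over 80, 3 of 27 were lost in the first 500 kb after MYC. In the 500 kb before MYC 10 of 15 were lost, and from 500 to 1000 kb after it 6 of 7. Both regions at MYC were retained. In H1975, 1 of 23 was lost in the first 500 kb, 1 of 2 before MYC and 0 of 3 from 500 to 1000 kb.

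The start of MYC was covered in all 8 lists by a region of 4723 bp, from 127734029 to 127738751, which held the promoter and the front of the gene. Its peaks covered 4667 and 4675 bp in the DMSO lists of H1975 against 3466 and 2968 bp in the ACBI1 lists. In HCC44 they covered 4690 and 4662 bp against 3404 and 4658 bp. In HCC44 ACBI1 replicate 2 the covered length was thus close to that of DMSO, and in the other 3 ACBI1 lists it was shorter. Over the genome, 44.2% of regions in all 8 lists were shorter in both ACBI1 lists in H1975 and 63.0% in HCC44. Its place by −log10 q was 101 and 512 with DMSO and 5 and 37 with ACBI1 in H1975, and 22 and 25 against 2 and 2 in HCC44. Its fold enrichment was low throughout, at 2.92 and 2.79 against 3.61 and 4.11 in H1975 and 2.42 and 2.27 against 2.74 and 2.19 in HCC44. By fold enrichment its mean percentile over the 8 lists was 2.53, against 99.8 by −log10 q.

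A second region at the end of MYC, from 127741734 to 127743629, was also held by all 8 lists. It covered 1071 and 859 bp under DMSO against 1791 and 1753 bp under ACBI1 in H1975, and 1704 and 1713 bp against 1750 and 1773 bp in HCC44. In each line it was longer in both ACBI1 lists than in either DMSO list. Regions held by all 8 lists were longer in this way in 6.91% of cases over the genome in H1975 and in 10.1% in HCC44. Its fold enrichments were 3.48 and 3.71 against 2.63 and 2.77 in H1975 and 2.49 and 2.61 against 2.01 and 1.79 in HCC44.

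The start of PVT1 lay in a region of 2307 bp, from 127793786 to 127796092, that also spans MIR1204, a microRNA gene. Every list held it, at places 32 and 218 with DMSO and 334 and 561 with ACBI1 in H1975, and 59 and 30 against 10 and 4 in HCC44. It covered 2126 and 2095 bp against 2027 and 1314 bp in H1975, and 2280 and 2277 bp against 1373 and 1445 bp in HCC44. It was shorter in both ACBI1 samples of each line. Over the genome this held for 44.2% of the regions in all 8 lists in H1975 and 63.0% in HCC44. Away from boundaries it held for 33.6% and 53.5%. Its fold enrichments were 4.65 and 4.49 against 4.16 and 5.26 in H1975 and 3.95 and 3.98 against 4.24 and 4.02 in HCC44.

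Across the whole PVT1 gene, H1975 lists held 27 and 26 regions under DMSO against 27 and 21 under ACBI1. HCC44 lists held 24 and 24 against 20 and 29. The groups overlapped in both lines. Of 26 PVT1 regions with a peak in both H1975 DMSO samples 17 were retained and 5 lost, and of 23 in HCC44 18 were retained and 3 lost. Away from boundaries, 35.9% of the genome's regions were retained and 50% lost in H1975, and 29.8% and 63.0% in HCC44. The retained PVT1 regions had a median DMSO percentile of −log10 q of 99.7 in H1975 and 99.8 in HCC44. Of the genome's regions away from boundaries with a mean DMSO percentile over 80, 85.0% were retained in H1975 and 53.1% in HCC44. The shares above are not matched for strength, and PVT1 regions were not compared at like strength.

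Regions held by all 8 lists numbered 24, or 15.5% of the window's regions, against 21.8% of all regions of the genome and 10.3% of those away from gene boundaries. Of these 24, 1 lay before MYC, at 64.1 kb, 2 at MYC, 16 in PVT1 and 5 past the end of PVT1, the farthest 440 kb after MYC. Their median width was 2274 bp, against 625 bp for the other window regions. Merging over more lists widens a region, so this follows in part from how they were chosen. These 24 regions made up 56.7% and 63.3% of the covered length of the window with DMSO and 70.3% and 87.7% with ACBI1 in H1975. In HCC44 they made up 44.4% and 43.7% against 59.7% and 55.9%. Regions lost with ACBI1 count in the DMSO totals alone, so a higher share with ACBI1 also follows in part from the choice of these 24. Their own covered length was shorter in both ACBI1 samples in 11 of 24 in H1975 and 12 of 24 in HCC44. Among regions that all lists held, this was so for 44.2% and 63.0% over the genome, and in 33.6% and 53.5% of those away from boundaries.

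The region 432 kb after MYC, from 128175221 to 128178068 inside the non-coding gene LOC124902020, had the highest −log10 q of the genome in every ACBI1 list. Its places with DMSO were 11 and 7 in H1975 and 7 and 5 in HCC44. Its −log10 q was 453 and 473 with DMSO and 790 and 500.4 with ACBI1 in H1975, and 294 and 273 against 354 and 344 in HCC44. Its fold enrichment was 4.02 and 4.80 against 5.52 and 6.56 in H1975, and 3.17 and 3.02 against 4.14 and 3.39 in HCC44. Both values were higher in both ACBI1 lists of each line, but depth and background, which can differ between libraries, enter both. The share of the genome's regions with such higher values was not computed. The region at the start of MYC also had a higher −log10 q in both ACBI1 lists of each line. It was 237 and 180 with DMSO against 487 and 287 with ACBI1 in H1975, and 202 and 168 against 268 and 231 in HCC44. The covered length of the region 432 kb after MYC was 2161 and 2098 bp against 1447 and 1228 bp in H1975. In HCC44 it was 2508 and 2552 bp against 1668 and 2038 bp, so it was shorter in every ACBI1 list. Among regions in all 8 lists, 44.2% in H1975 and 63.0% in HCC44 were shorter in both ACBI1 lists over the genome. Away from boundaries the shares were 33.6% and 53.5%.

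Its neighbours behaved differently within the same lists. The region 424 kb after MYC (128167362 to 128169389), in the same non-coding gene, was at places 14 and 57 with DMSO in H1975 and at 3 and 2 in HCC44. Its places with ACBI1 were 19226 and 20651 in H1975, while those in HCC44 were 12497 and 10521. The region at 440 kb (128182781 to 128186231) was at places 10 and 8 with DMSO and 13 and 30 with ACBI1 in H1975. In HCC44 that region was at places 17 and 40 with DMSO and 737 and 9219 with ACBI1. The region at 384 kb (128126786 to 128128313) was at place 1 in both HCC44 DMSO lists and at 36 and 10 in its ACBI1 lists. In H1975 it was at 20 and 203 with DMSO and 2612 and 3203 with ACBI1.

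Inside PVT1 the region 333 kb after MYC (128076049 to 128077993) was near the top of all 4 H1975 lists, at places 2 and 1 with DMSO and 6 and 6 with ACBI1. In HCC44 it was at place 15 in both DMSO lists and at 24463 and 22885 with ACBI1, close to the end of those lists. Its fold enrichments in HCC44 were 4.37 and 4.28 with DMSO and 2.44 and 2.16 with ACBI1. In H1975 they were 5.49 and 5.75 with DMSO and 4.57 and 7.33 with ACBI1. The region at 108 kb (127851191 to 127854929) was at places 1 and 2 with DMSO and 2 and 23 with ACBI1 in H1975, and at 12 and 41 against 37 and 40 in HCC44. A pair of PVT1 regions had the highest mean DMSO percentiles of their zone. The one at 116 kb (127859188 to 127860707) was at places 4 and 3 with DMSO and 170 and 1482 with ACBI1 in H1975, and at 5 and 6 against 12 and 13 in HCC44. The one at 155 kb (127898408 to 127901135) was at 3 and 4 against 585 and 5955 in H1975 and at 2 and 3 against 2177 and 708 in HCC44.

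Before MYC the region at 64.1 kb (127668080 to 127671290), which overlaps the non-coding gene LOC105375754, was the one held by all 8 lists. It was at places 7 and 9 with DMSO and 1417 and 3706 with ACBI1 in H1975. In HCC44 it was at place 4 in both DMSO lists and at 14529 and 15634 with ACBI1. The order of these regions thus differed between treatments in each line, and the lists differ in length.

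**Figure D3:**
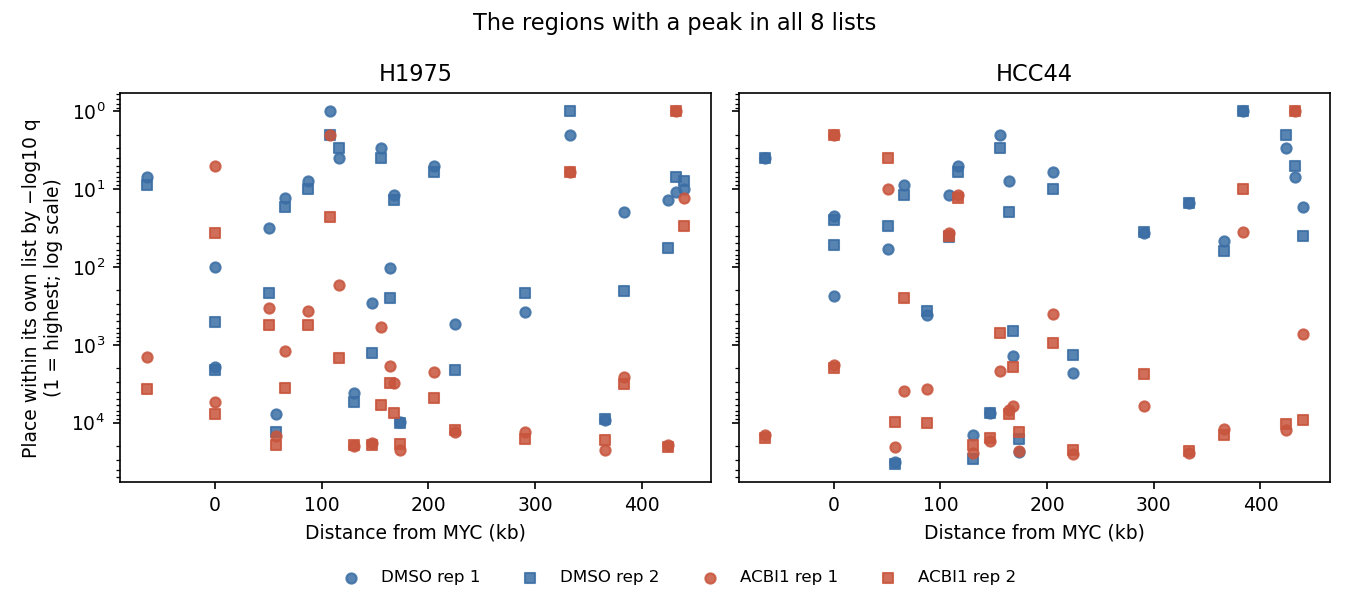
For the 24 regions with a peak in all 8 lists, points give the place of the region's best peak by −log10 q within its own list (log axis, 1 at the top) against its distance from MYC in kb, for H1975 (left) and HCC44 (right), DMSO in blue and ACBI1 in red. The region at 432 kb is at place 1 in the 4 ACBI1 lists, and the region at 333 kb is at places 6 and 6 with ACBI1 in H1975 and at 24463 and 22885 in HCC44.

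Among lost regions, the strongest in H1975 lay 395 kb before MYC (127339879 to 127340765, in CASC21 and CASC8), at percentiles 95.9 and 96.5 of the DMSO lists. It was lost in HCC44 too, where its percentiles were above 99.9 in both DMSO lists, with places 19 and 45. The strongest lost region in HCC44 lay 344 kb before MYC (127391026 to 127391796), at place 27 in both DMSO lists, and was also lost in H1975, where its places were 36915 and 35788. In LINC00824, a non-coding gene, the regions 685 kb and 772 kb after MYC were lost in both lines. Their places with DMSO were 85 and 38, and 65 and 71, in HCC44.

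Of 52 regions that every DMSO sample listed, 24 (46.2%) were retained in both lines and 10 (19.2%) were lost in both. Over the genome 51.8% were retained and 25.1% lost in both lines, and away from boundaries 30.6% and 37.4%. A further 2 were lost in H1975 and retained in HCC44, against 1.78% over the genome and 2.43% away from boundaries. The reverse was seen in 2 regions, 515 kb and 524 kb after MYC, against 6.27% and 8.82%. A further 37 regions had peaks in both HCC44 DMSO samples and neither H1975 DMSO sample, and 24 of them (64.9%) were lost, against 71.4% over the genome and 73.7% away from boundaries. Of these 37, 17 lay before MYC and 12 from 500 to 1000 kb after it. In H1975, 12 regions had peaks in both DMSO samples and none in HCC44 DMSO, and 8 of them (66.7%) were lost, against 65.1% over the genome and 69.8% away from boundaries.

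Gained regions numbered 3 in H1975 (3.70% of the regions with any peak in that line, against 1.33% over the genome and 1.52% away from boundaries). They numbered 12 in HCC44 (8.76%, against 2.27% and 2.59%). These counts moved with single lists, to 7 in H1975 without ACBI1 replicate 2 and 5 without DMSO replicate 1, and to 31 in HCC44 without ACBI1 replicate 1. Gained regions were weak, most of them at low percentiles of −log10 q. These ran from 0.858 to 22.6 in H1975, with fold enrichments of 2.11 to 3.19. In HCC44 they ran from 0.257 to 66.1, with a median of 22.7 and fold enrichments of 1.71 to 7.60. With a minimum −log10 q of 20, 0 remained in H1975 and 3 in HCC44. Gained in both lines were a region in PVT1 at 96.9 kb (127839844 to 127840931) and one at 499 kb (128241658 to 128242517), past PVT1 and outside annotated genes. H1975 had 1 further gained region, in PVT1 at 263 kb. The other 10 of HCC44 lay 412, 352, 196, 181 and 103 kb before MYC and 271, 404, 428, 1561 and 1939 kb after it.

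The fold enrichment of the window's peaks was divided by the median over the roughly 500 peaks of the same list nearest in −log10 q, a ratio of 1 for a typical peak. For peaks near the top of a list fewer peaks entered, most of them of lower −log10 q. The window's own peaks were not left out. From 150 kb before MYC to 500 kb after it the median ratio was 0.50 and 0.48 with DMSO and 0.47 and 0.44 with ACBI1 in H1975. In HCC44 it was 0.60 and 0.62 with DMSO and 0.52 and 0.50 with ACBI1. These medians were at percentiles of 0.344 to 6.64 among all peaks of their lists. In the stretch from 500 to 150 kb before MYC the ratio in H1975 was 0.84 and 0.82 with DMSO and 0.77 in ACBI1 replicate 1. In HCC44 it was 0.75 and 0.76 with DMSO and 0.69 and 0.73 with ACBI1 there. From 580 to 810 kb after MYC the ratio in H1975 was 1.32 and 1.32 with DMSO, on 5 peaks each. With ACBI1 it was 1.33 and 1.30, on 2 peaks and 1 peak. In HCC44 it stayed at 0.73 and 0.77 with DMSO and 0.74 and 0.69 with ACBI1 over that stretch. Beyond 1000 kb its median was 1.09 to 1.39 in the 7 lists with a peak there, on 1 to 8 peaks a list. The stretches were chosen after these values were seen. In H1975 the change fell between the regions at 526 and 580 kb after MYC and in HCC44 between those at 810 and 1193 kb. The fold enrichment of peaks from 150 kb before MYC to 500 kb after it was thus mostly low for their −log10 q in all 8 lists. The median percentile of their −log10 q was 79.5 and 76.6 in the DMSO lists of H1975 and 97.5 and 97.6 in those of HCC44. For the ACBI1 lists of H1975 the values were 35.4 and 65.4, while those of HCC44 had 49.9 and 39.2. How the caller set its background is not stated, the copy number of the locus was not measured, and its part in the places by −log10 q was not tested.

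**Figure D4:**
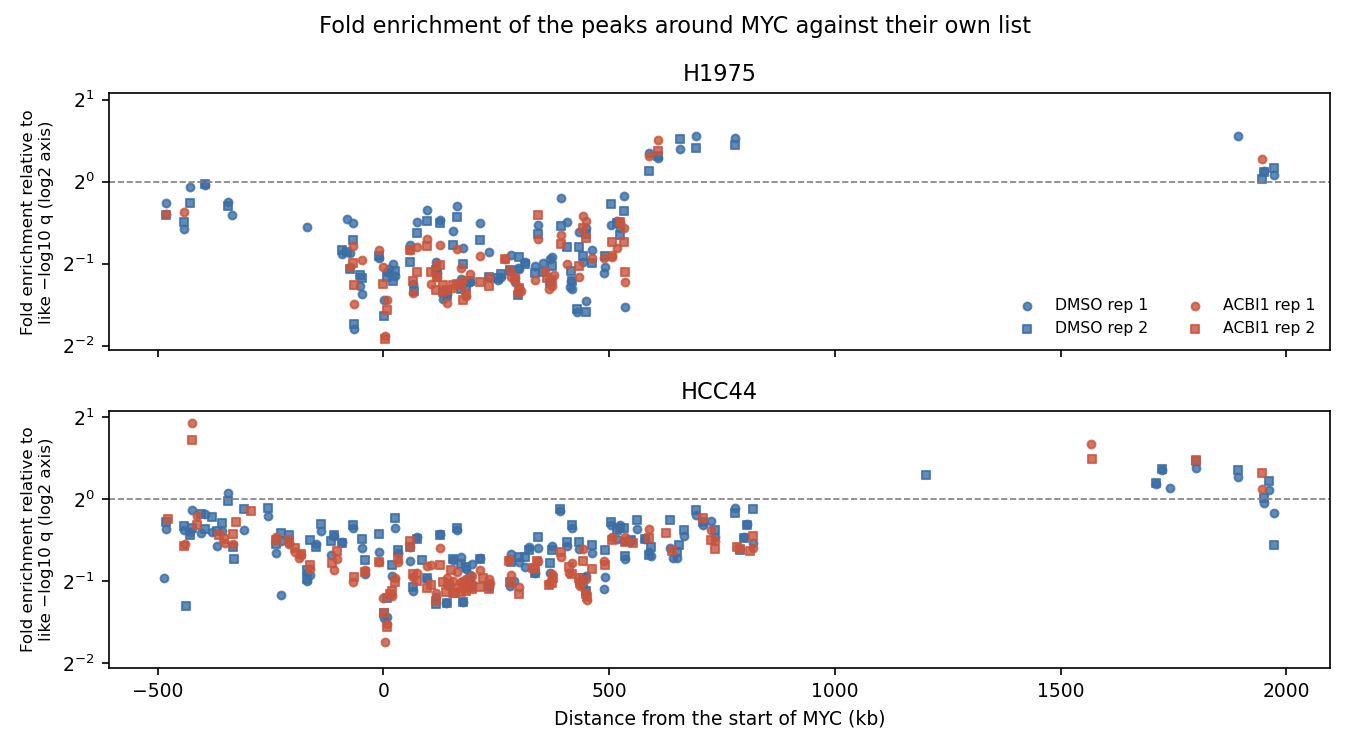
Each point is a listed peak of H1975 (top) or HCC44 (bottom), placed by the distance of its midpoint from the start of MYC in kb. The y axis (log2, dashed line at 1) gives its fold enrichment divided by a median over peaks of its list. These are the about 500 peaks nearest in −log10 q, fewer at the top of a list. Points lie mostly below the line around MYC and PVT1 and above it from 580 kb on in H1975 and, for most peaks, past 1000 kb in HCC44.

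Replicates of ACBI1 differed more here than those of DMSO. With DMSO, 89.0% of the window regions of H1975 and 87.6% of those of HCC44 with a peak in either replicate had one in both. With ACBI1 that was so of 60% in H1975, where 21 regions were in replicate 1 alone and 1 in replicate 2 alone. In HCC44 it was 67.9%, with 2 regions in replicate 1 alone and 25 in replicate 2 alone. Over the genome the ACBI1 shares were 75.5% in H1975 and 79.6% in HCC44, also below the DMSO shares of 84.0% and 82.2%. HCC44 ACBI1 replicate 2 also accounted for 17 of the 32 regions held by 1 list.

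The MYC network was set beside the locus through 12 other genes, each with the peaks from 50 kb before to 50 kb after it. Around MYC itself the H1975 lists held 7 and 6 peaks under DMSO against 5 and 3 under ACBI1, and each of the 4 HCC44 lists held 8. Both ACBI1 lists held fewer peaks than either DMSO list around 3 of the 12 genes in H1975 and around 9 in HCC44. More peaks were held around 0 genes in either line. Over all protein-coding genes the shares with fewer were 43.2% and 55.0%, and with more 1.45% and 1.79%. MAX, the shared partner of the network, had 7 and 4 peaks against 3 and 2 in H1975 and 6 and 6 against 4 and 2 in HCC44. MXI1, a MAX-binding repressor, had 8 and 7 against 4 and 4 in H1975 and 7 and 9 against 3 and 3 in HCC44. MNT, another MAX-binding repressor, had 9 and 8 against 7 and 6 in H1975 and 7 and 8 against 7 and 7 in HCC44. MYCL, a paralogue of MYC, had 3 and 3 against 3 and 2 in H1975 and 6 and 6 against 4 and 3 in HCC44. MYCN, the other paralogue, had 0 peaks around it in H1975 and 1 in replicate 1 of each HCC44 group.

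A boundary peak was listed in all 8 samples for MYC and for 9 of the 12 genes, as for 52.6% of all protein-coding genes. The exceptions were MYCN, MXI1 and MLXIPL, a glucose-responsive factor. MXI1 and MLXIPL had one in all 4 H1975 lists and both HCC44 DMSO lists, and in neither HCC44 ACBI1 list. This pattern was met in 0.638% of all protein-coding genes. It was defined after it was seen in these genes, so the share does not measure how unusual they are.

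Peak counts were also taken from 500 kb before to 2 Mb after every protein-coding gene. By the Euclidean distance of log2(count + 1) over the 8 samples, the genes nearest to MYC were LGALS3BP on chromosome 17, TOX4 on chromosome 14 and LRRC37A2 on chromosome 17, at 0.40, 0.41 and 0.44. Around LGALS3BP there were 76, 73, 61 and 41 peaks in the H1975 lists and 109, 107, 65 and 67 in the HCC44 lists, DMSO before ACBI1. Around TOX4 there were 73, 67, 56 and 42 in H1975, while HCC44 had 94, 93, 69 and 67. The likeness is over 8 samples and describes counts alone.

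At the edges of the window, the outermost regions inside lay 485 kb before MYC, in 1 list, and 1965 kb after it, in 4 lists. The nearest regions outside lay 510 kb before, in 5 lists, and 2010 kb after, in 4 lists.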

How the data were processed

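ATAC-seq was run on 8 samples, and the authors deposited 1 peak list for each, in a broadPeak layout of 9 columns without a header. BWA and the build hg38 are named in the submitters' processing notes; the caller, its settings and its filters are not given in the sources used here. The fold enrichment of a peak is a ratio computed by the authors and was taken from the seventh column, its place in that layout. Significance was deposited as −log10 p and −log10 q. The deposited score, 10 times the −log10 q, was not used.

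Gene positions came from RefSeq (GRCh38.p14); this table gives no strand. Peaks of the 8 lists that overlapped by at least 1 bp were merged. Percentiles and places rank peaks within 1 list. Numbers, lengths and shares were compared on the log2 scale by exact permutation tests over samples, two-sided, with treatments permuted within lines. No such test can pass 0.05, so changes are set beside the SD between replicates. Stretches set beside the window had at least 10 peaks in both DMSO samples of a line. Calls of regions carry no test and stand beside the genome's share. The regions named were those at MYC and at the start of PVT1, those held by all 8 lists or gained, and the 2 highest by DMSO percentile in each 500 kb zone. The strongest lost regions, the region 423 kb before MYC, the stretches of the ratio and the comparison at a percentile over 80 were chosen after their values were seen. So was the pattern of boundary peaks shared by MXI1 and MLXIPL. Members, lists and tests were chosen with earlier results of these data known. Without read depths, no counting intervals are given. The functions were tested on simulated peak lists. A leukocyte marker of the list is not reported here. No sequences are printed. Python 3.11.15, numpy 2.4.6, pandas 2.3.3, scipy 1.17.1 and matplotlib 3.10.9 were used.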

Additional observations from a re-analysis of the deposited data

How the results depend on the processing

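Peak lists without reads limit these results: a peak that is not listed may lie just under the caller's threshold, and 2 replicates a group cannot give a small p. Over 19 results, 89 values were computed under other settings and 136 with 1 replicate left out; of the 89, 62 kept their direction or stayed within 1.5 times. With a minimum −log10 q of 20, the change in the window's share of peaks was −0.22 in H1975, −0.12 in HCC44 and −0.17 over both lines, the HCC44 minus H1975 difference in change was −0.24, 27 regions were retained in HCC44, and 0 and 3 were gained in H1975 and HCC44. With a minimum fold enrichment of 5, the share changed by −1.18, −0.92 and −1.05, the difference in change was −0.52 and the DMSO difference between lines −0.43; 2 regions were retained and 1 gained in H1975, and 12 were lost, 0 retained and 2 gained in HCC44. From 50 kb before MYC to 50 kb after PVT1, the change in number was 0.029 in HCC44, the DMSO difference −0.11, 8 regions were lost in H1975, and 5 were lost, 28 retained and 3 gained in HCC44; fewer regions lie there by construction. With equal numbers of peaks by −log10 q (22133 a list), 12 regions were lost in H1975 and 27 retained in HCC44. The change in number, and so in share, was then −0.36 in H1975, −0.47 in HCC44 and −0.41 over both lines. For the other reversals and moves the cause was not tested.

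Leaving out 1 replicate, the change in number ran from −0.97 to −0.35 in H1975, −0.68 to −0.26 in HCC44 and −0.72 to −0.41 over both; that in covered length from −1.06 to −0.26, −0.83 to −0.21 and −0.79 to −0.39; that in share from −0.036 to 0.26, 0.25 to 0.75 and 0.18 to 0.43. The share in H1975 was −0.036 without H1975 ACBI1 replicate 1. The difference in change ran from −0.13 to 0.50 and the DMSO difference from 0.39 to 0.53. Lost regions ran from 21 to 37 and 43 to 49, retained from 28 to 44 and 43 to 48, and gained from 3 to 7 and 12 to 31, in H1975 and HCC44. By fold enrichment the region at the start of PVT1 had a mean percentile of 18.7, against 99.4 by −log10 q.

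The replicate numbers were also used as a block: the changes over both lines were −0.56, −0.59 and 0.31 for number, length and share, as without it by construction, with exact p of 0.125, 0.125 and 0.25, two-sided. The labels do not say what a number shares, and replicate 1 minus replicate 2 correlated between treatments by 0.16 in H1975 and 0.022 in HCC44 over stretches of the genome.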

Other observations

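Peaks with a fold enrichment under 2 were rare in every list and were met in this window with ACBI1 alone. The HCC44 ACBI1 lists held 23 and 86 such peaks in all, of which 4 and 21 lay in the window. The H1975 ACBI1 lists held 29 and 4, of which 2 and 1 lay there. The DMSO lists held 12 and 4 in H1975 and 21 and 33 in HCC44, with 0 in the window. The lowest fold enrichments of the whole HCC44 ACBI1 lists, 1.60 and 1.56, were in the window.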
